A study of Sus scrofa with 13 samples.

Results

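The testis library of a pig expression series was compared with the libraries of the 8 other organs taken at the same age, and both Ensembl genes and long noncoding RNAs (lncRNAs) were examined. The testis is 1 of 13 libraries in the series, and 9 of the 13, including the testis, were from tissues collected at day 240 after birth. The comparison was set by the sample labels alone. Total RNA came from Guizhou mini-pigs, which are small pigs of a Chinese breed. It was depleted of ribosomal RNA and sequenced as paired ends from strand-specific libraries, made with a SMART or a dUTP protocol. The labels do not say which protocol was used for which library, nor whether an organ came from 1 animal or from pooled animals. The other organs at day 240 were heart, liver, spleen, lung, kidney (spelled "kindey" in the label), ovary, adipose tissue and a skeletal muscle along the back (longissimus dorsi), here called muscle. The 4 remaining libraries were muscle at day 0 and day 30 and mixtures of RNA from several tissues and from muscle. Each organ had 1 library, so no test between organs could be made, and the differences below compare libraries. The authors identified the lncRNAs by mapping and assembling RNA-seq reads of the organs and muscle stages. The lncRNA catalogue was therefore built from libraries of this series, the testis among them.

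The adult testis makes sperm in the seminiferous tubules. Spermatogonia divide by mitosis, spermatocytes pass through meiosis with pairing and recombination of chromosomes, and round spermatids then build an acrosome and a flagellum and replace their histones by transition proteins and protamines. The tubules are lined by Sertoli cells, which nurse the germ cells, and wrapped by peritubular myoid cells, while Leydig cells between the tubules make testosterone from cholesterol. The testis is known for transcribing more of the genome than most organs. In bulk RNA, fewer cells of a type and less RNA per cell cannot be told apart.

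The values were deposited as RPKM, reads per kilobase of the feature, normalised to the total reads of the library. Whole reads could be recovered from them, and 12394421 reads were counted on features in the testis, against 3629806 to 8241185 in the other organs. These were 32.1% of the total used in RPKM in testis and 38.0% in ovary, but 11.6% to 21.9% in the other 7 organs. The RPKM values therefore summed to 190421 in testis and 214285 in ovary, and to between 61672 and 130870 elsewhere. As a result, most genes had a higher RPKM in testis than in most organs: over the 15252 Ensembl genes of at least 1 RPKM in at least 1 of the 9 libraries, the median difference of testis from the median of the other organs was 1.04 on the log2(RPKM + 0.1) scale. With RPKM scaled to the same sum in the 9 libraries this median was 0.02, over the 15128 genes that then passed the same filter. Scaled values are given beside the deposited ones for many counts and list medians, while the levels of single genes are as deposited. Exact Poisson 95% intervals below cover counting error of the reads only.

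Of the 21607 Ensembl genes listed, 15252 passed the filter of 1 RPKM, and 1541 of them, or 10.1%, were at least 4-fold above the highest of the 8 other organs in testis. With RPKM scaled to the same sum there were 1096. Against the median of the other organs, 4580 genes (30.0%) were at least 4-fold higher in testis and 488 (3.2%) were at least 4-fold lower. The share of higher genes among these calls was 90.4% as deposited and 68.8% after scaling, with 2594 higher and 1177 lower. Only 3 genes, 0.0197% of those that passed, were at least 4-fold below the lowest other organ, and after scaling there were 24. The testis was the highest organ for 4625 genes and the lowest for 431. These counts became 3187 and 1142 after scaling. The ovary was highest for 5536 genes as deposited and for 1942 after scaling, so which gonad led more genes turned with the scaling.

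**Figure D1:**
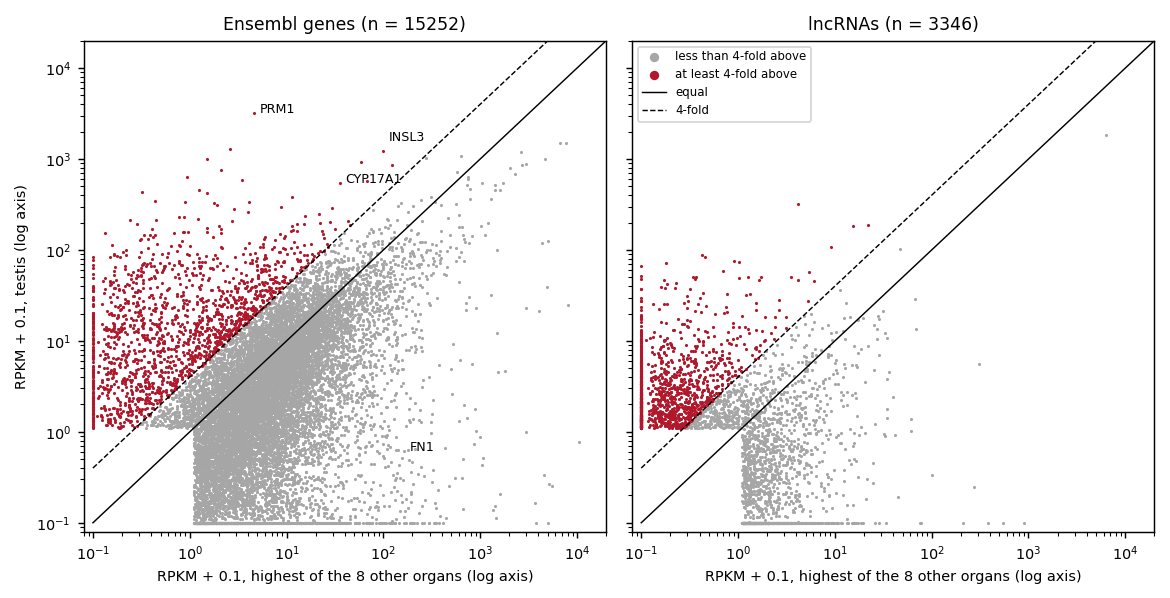
RPKM + 0.1 in testis (vertical, log axis) against the highest of the 8 other organs (horizontal, log axis) for the 15252 Ensembl genes and 3346 lncRNAs of at least 1 RPKM in at least 1 of the 9 libraries, as deposited. Red points are the 1541 genes and 1393 lncRNAs at least 4-fold above the highest other organ, and the column at the left edge holds features listed at 0 in all other organs.

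No other organ had as many genes of this kind under either scaling. As deposited, the same count of genes at least 4-fold above all other organs was 529 in ovary, 244 in kidney, 239 in liver, 143 in lung and 48 to 106 in the other 4 organs. After scaling it was 335 in liver, 258 in kidney, 218 in spleen, 208 in lung and 135 in ovary, against 1096 in testis. The genes called in testis took 25.2% of the counted reads of testis and from 0.528% to 1.81% of those of the other organs. Of the 1541 genes, 142 were listed at 0 in all 8 other organs. The next organ behind testis was ovary for 612 genes and lung for 299, and after scaling these counts were 274 and 266 of 1096. The filter was passed through testis alone by 954 of the 1541, so these had to lie above the other organs, while 587 also reached 1 RPKM elsewhere. Over all genes that passed, Spearman's rho with testis ranged from 0.34 for liver to 0.53 for ovary. The highest rho of each other organ was at least 0.69, and the lower ones among those organs are not given. The filter was passed through testis alone by 1241 of the genes, which by itself lowers the rho with testis. This is a description over 15252 genes that share their libraries.

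**Figure D2:**
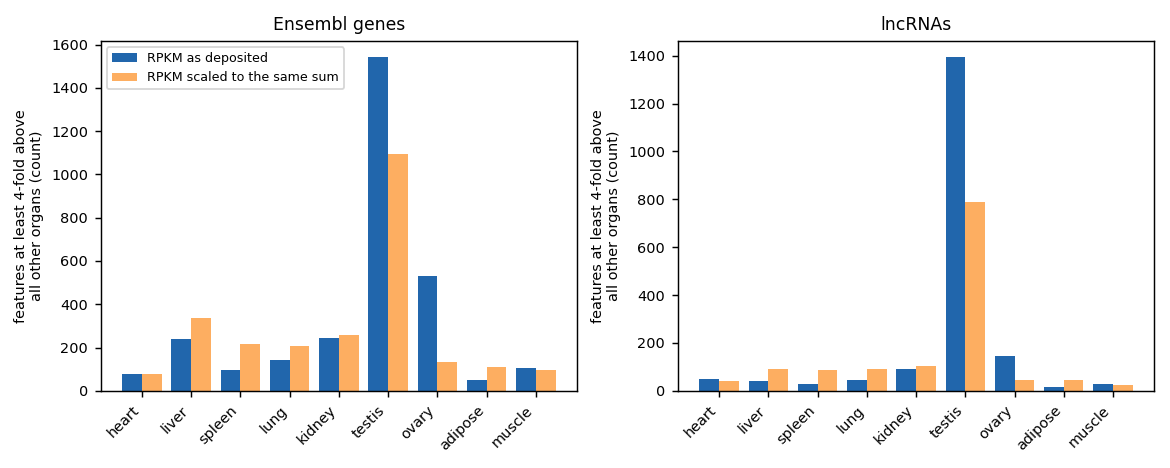
Number of Ensembl genes (left) and lncRNAs (right) at least 4-fold above all 8 other organs, for each organ at day 240, with RPKM as deposited (blue) and scaled to the same sum (orange). Testis had the highest bar in each panel, 1541 and 1096 genes and 1393 and 788 lncRNAs.

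The germ cell lists were highest from meiosis onwards. In all, 181 genes of the 9 lists of germ cell function had an identifier, 171 passed the filter, 132 were at least 4-fold above the highest other organ and 157 were higher in testis than in every other organ. After scaling, 112 were at least 4-fold above. The share of 132 in 171, 77.2%, is to be read against 10.1% of all genes. The lists hold genes known from germ cells and were chosen with earlier results of these data known, so this share is a description and no independent check of the label.

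**Figure D3:**
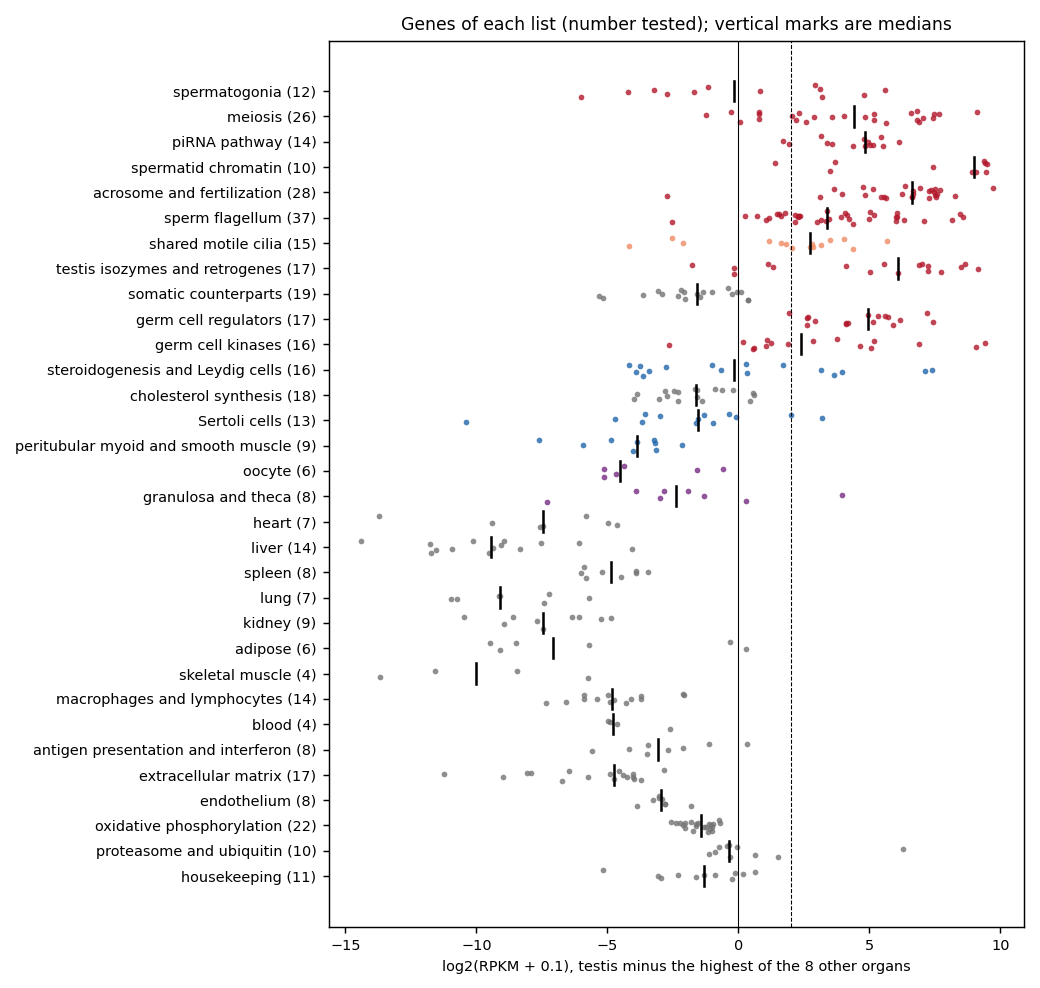
Difference of log2(RPKM + 0.1) between testis and the highest of the 8 other organs for the genes of each list that passed the filter (points, number in parentheses), with the median of the list (vertical mark). Lines mark equality and 4-fold. Points for meiosis, spermatids and sperm lie mostly to the right of 4-fold, and points for other organs, immune cells, extracellular matrix and endothelium lie mostly to the left of equality.

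Spermatogonial genes were mixed. Of 16 with an identifier 12 passed the filter, and 5 of these were at least 4-fold above the highest other organ as deposited and 2 after scaling. The RNA helicase DDX4, a marker of the germ line, was at 88.9 RPKM (95% interval 85.4 to 92.5) in testis, at 1.74 in ovary and 0.185 in adipose tissue, and was listed at 0 in the other 6 organs. TEX14, a protein of the bridges between germ cells, was at 27.4 RPKM in testis and at most 0.89 elsewhere. STRA8, which is needed to enter meiosis, and DMRT1, a transcription factor of spermatogonia and Sertoli cells, had only 2.70 and 2.06 RPKM and reached 0.226 and 0.138 at most in the other organs, both in adipose tissue. ELAVL2, an RNA-binding protein of neurons and germ cells, was at 5.37 RPKM in testis and 3.03 in ovary.
Other spermatogonial genes, markers of undifferentiated spermatogonia among them, were low or were higher elsewhere. GFRA1, the receptor of the growth factor GDNF, was listed at 0 in testis, which allows up to 0.0972 RPKM, and was at 6.42 in ovary and 2.29 in spleen. ZBTB16 was at 1.997 RPKM in testis against 13.8 in lung and 10.99 in heart, and ID4 at 0.523 against 1.90 in lung. KIT, the receptor of stem cell factor, had 2.78 RPKM in testis, within the range of the other organs from 0.192 in muscle to 6.38 in ovary. UCHL1, a ubiquitin hydrolase, was at 5.01 RPKM in testis and 48.2 in ovary, and FGFR3 was listed at 0 in testis and at 1.78 in liver.

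Genes of meiosis were higher in testis with few exceptions. All 26 with an identifier passed the filter, 24 were highest in testis and 20 were at least 4-fold above the highest other organ (15 after scaling). Their median difference from the highest other organ was 4.42 on the log2 scale, or 4.66 with the genes listed at 0 elsewhere set at the bound of 3 reads, against -0.99 over all genes that passed. SYCE1, a protein of the central element of the synaptonemal complex, which joins paired chromosomes, was at 91.2 RPKM in testis, 0.0654 in ovary and 0.0390 in spleen, and was listed at 0 in the other 6. The ovary value was 1 read, so the ratio of 1394 had an interval from 250 to 55079. SYCE3 and BRDT, the latter a reader of acetylated histones in spermatocytes and spermatids, had 80.2 and 89.6 RPKM and were above 0 in no organ but ovary, at 0.303 and 0.42. HORMAD1 and SYCP2, proteins of the chromosome axis, had 75.2 and 53.0 RPKM against at most 0.677 and 0.979. SPO11, the enzyme that makes the breaks of meiotic recombination, was listed at 0 outside testis and was at 1.52 RPKM there, at least 22.5-fold above the level of 3 reads. MSH4 and YTHDC2 were not highest in testis. MSH4, a mismatch repair homologue that stabilises crossovers, was at 5.18 RPKM in testis, 12.3 in ovary, 6.55 in muscle and 1.48 to 4.997 in the other organs, and YTHDC2, an RNA helicase, was at 5.01 in testis and 6.20 in ovary.

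The piRNA pathway silences transposons in germ cells through small RNAs. All 14 of its genes that passed the filter, of 16 with an identifier, were highest in testis, and 12 were at least 4-fold above the highest other organ under both scalings. TDRKH, a Tudor protein that acts in piRNA trimming, was at 53.2 RPKM in testis and at most 1.07 elsewhere, in kidney. GTSF1, ASZ1, TDRD6 and MAEL had 24.4, 23.5, 22.7 and 21.7 RPKM in testis and at most 0.466, 0.238, 0.549 and 0.659 in ovary, which was the next organ for all 4. TDRD9 and the transcription factor MYBL1, which drives piRNA precursors in spermatocytes, were the 2 under 4-fold, with differences of 1.70 and 1.91 on the log2 scale. HENMT1 and PIWIL4 had at most 0.43 and 0.468 RPKM in any organ and did not pass.

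Genes of the proteins that compact the spermatid nucleus were among those of the highest testis RPKM. PRM1, a protamine, was at 3203 RPKM in testis (95% interval 3157 to 3249), more than any other Ensembl gene there. It was at 4.52 RPKM in ovary, 1.45 in heart and 0.4 in muscle, and was listed at 0 in liver, spleen, lung, kidney and adipose tissue. TNP1, a transition protein that precedes the protamines on the DNA, was at 1278 RPKM in testis, 2.53 in ovary, 0.464 in heart and 0.219 in muscle, and at 0 in the same 5 organs.
The testis value was 708 times the ovary value for PRM1 (interval 429 to 1266, from 15 ovary reads) and 505 times for TNP1 (interval 336 to 797, from 23 ovary reads). TNP2 had 1001 RPKM in testis, 1.4 in heart, 1.37 in ovary and 0.53 or less in the other 6 organs. PRM2 was at 113 RPKM in testis and 0.0565 in lung, which was 1 read, and at 0 in the other 7. Per length of the feature it lay far below PRM1. H1-7, a linker histone of spermatids, was at 194 RPKM, and TSSK6, a kinase needed for the exchange of histones, was at 89.0, with at most 0.187 and 0.0669 elsewhere. The chromatin remodeller CHD5 and the reader CDYL were at 44.99 and 34.4 RPKM, 3.67 and 3.49 above the highest other organ on the log2 scale. RNF8, a ubiquitin ligase that also acts in DNA repair, was at 26.7 RPKM in testis and 9.99 in ovary and was the only gene of the 10 under 4-fold. All 10 were highest in testis.

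Genes of the acrosome and of fertilization were called almost throughout, with 27 of 28 at least 4-fold above the highest other organ and 26 after scaling. Their median difference was 6.64 on the log2 scale and 6.29 with genes at 0 elsewhere set at the bound. ACR, the protease acrosin, was at 83.6 RPKM in testis and listed at 0 in all 8 other organs, so it was at least 453-fold above the level of 3 reads. ACRBP, which binds its proenzyme, was at 159.5 RPKM in testis and 0.774 or less elsewhere. CLGN and CALR3, chaperones of the endoplasmic reticulum that fold sperm surface proteins, were at 159 and 106 RPKM, and CRISP2, a secreted protein of acrosome and tail, was at 157. IZUMO4 had 118 RPKM in testis and 4.001 in ovary. SPACA6, which acts in the fusion of sperm and egg, stood apart from the list with 0.53 RPKM in testis (interval 0.324 to 0.819) and 4.07 in lung, 3.06 in kidney and 0.313 to 1.56 in the others.

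Genes of the sperm tail were highest in testis for 36 of the 37 that passed, of 38 with an identifier, with RSPH4A as the exception, and 28 were at least 4-fold above the highest other organ (21 after scaling). SMCP, a cysteine-rich protein of the mitochondrial capsule, was at 341 RPKM in testis and at most 0.79 elsewhere. CABYR, a calcium-binding protein of the fibrous sheath, was at 262 RPKM in testis, 3.91 in lung, 3.22 in liver, 1.89 in ovary and below 0.4 in the other 5 organs. The anchoring proteins of the fibrous sheath AKAP3 and AKAP4 were at 139.8 and 130.3 RPKM, with at most 1.65 and 0.272 in another organ, the lung in each case. SPAG6, a protein of the central pair of microtubules, was at 118 RPKM in testis and 5.64 in lung.
The genes shared with the motile cilia of the airway had lung as their next organ. In the list of shared cilia genes, 12 of the 15 that passed were highest in testis and 9 were at least 4-fold above the next organ, a number that was 4 after scaling. Lung was the next or the highest organ for all of the 17 with an identifier but CCDC39. DNAAF1, DNAAF11 and ZMYND10, which assemble dynein arms, had 108, 47.5 and 26.4 RPKM in testis and 1.997, 6.65 and 3.61 in lung, and CCDC65, a subunit of the dynein regulatory complex, had 72.4 and 4.32. The exceptions pointed the other way. DNAH11, a dynein heavy chain, was at 0.497 RPKM in testis and 10.7 in lung, DNAH9 at 0.949 and 4.49, and RSPH4A, a protein of the radial spoke head, at 0.509 and 3.43. The radial spoke gene RSPH9, in contrast, was at 4.34 RPKM in testis and 0.293 in lung.

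**Figure D4:**
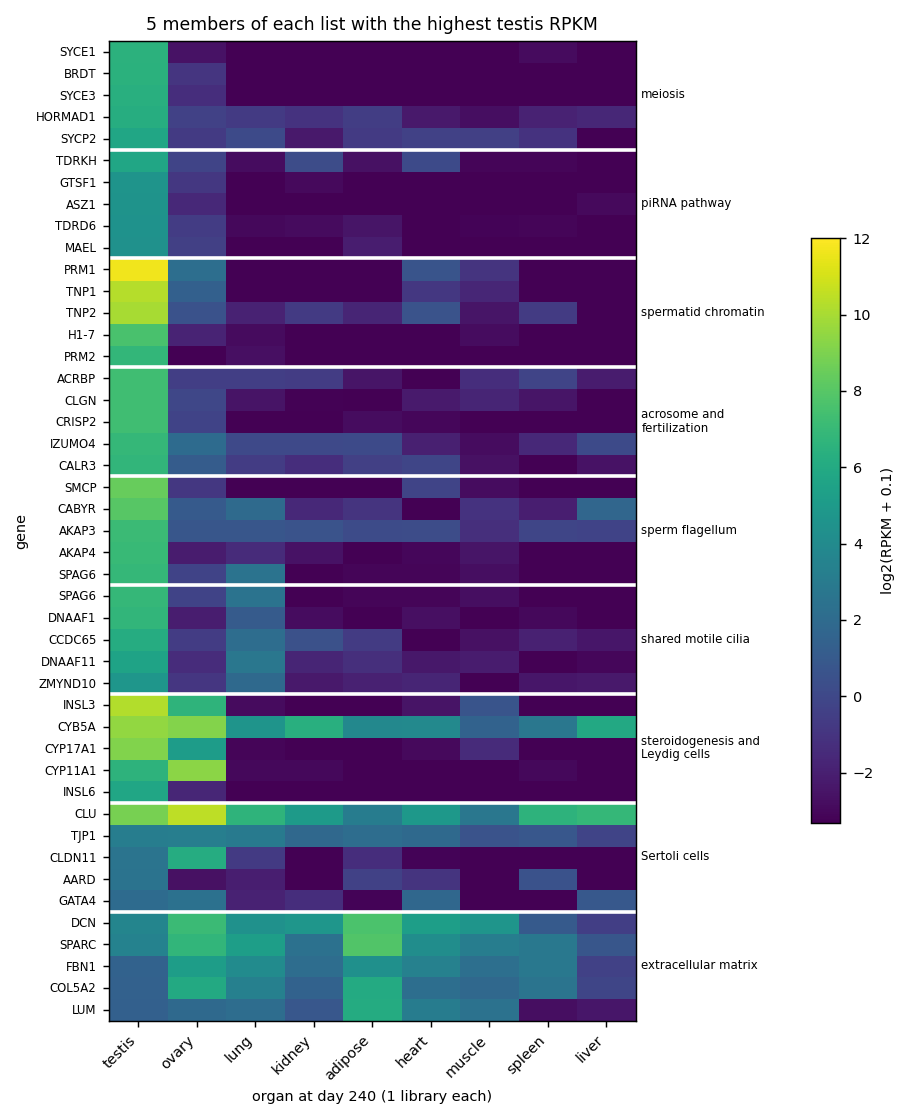
Levels as log2(RPKM + 0.1) in the 9 organs at day 240 (columns, 1 library each) of the 5 genes of the highest testis RPKM in each of 9 lists (rows). The genes of meiosis, the piRNA pathway and sperm stood out in testis, the cilia genes were second in lung, the steroid genes were shared with ovary, and the genes of the extracellular matrix were lower in testis than in ovary and adipose tissue.

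Several enzymes of energy metabolism and the cytoskeleton have a copy used by germ cells, often without introns. Of 17 such genes with an identifier 12 were at least 4-fold above the highest other organ under both scalings. CETN1, a centrin of the sperm centriole, was at 454 RPKM in testis and 1.16 or less elsewhere, while its widely used relative CETN2 was at 36.0 in testis and 2.75 to 28.3 in the other organs. LDHC, the lactate dehydrogenase of sperm, was at 48.1 RPKM in testis and at most 0.28 elsewhere, and LDHA was at 32.3 in testis, 1301 in muscle and 3.74 to 19.9 in the other 7 organs. For glyceraldehyde-3-phosphate dehydrogenase the general form remained higher, with GAPDHS at 27.0 and GAPDH at 119 RPKM in testis. GAPDHS was at 0.127 in ovary and 0 in the other 7 organs. The actin-related ACTL7A and ACTRT2 were at 125 and 88.6 RPKM, and the glycerol kinase GK2 was at 83.5, with at most 0.734, 0.122 and 0.0495 elsewhere.
Other members were not particular to testis. RPL10L was at 4.14 RPKM in testis and 4.69 in spleen, and CSTF2T, a cleavage factor of polyadenylation, was at 3.605 in testis and 4.07 in ovary. HSPA1L was at 12.6 RPKM in testis, below all 8 other organs at 13.7 to 43.0. RPL10L and HSPA1L have near-identical relatives, so how reads were divided among them is uncertain. Of the 19 general counterparts none was at least 4-fold above the highest other organ, and their median difference from the median of the other organs was 0.83 as deposited and -0.27 after scaling.

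Regulators and kinases of germ cells followed the same pattern. Of 17 regulators that passed, of 20 with an identifier, all were highest in testis and 16 were at least 4-fold above the next organ (13 after scaling). Besides BRDT and DDX4, these were led by SPZ1, a leucine zipper protein, at 72.1 RPKM, KCTD19 at 41.4 and ADAD1 at 40.6, with 1.21 or less elsewhere. Of 16 kinases and kinase regulators 8 were at least 4-fold above and 15 were highest in testis. TSSK2, a kinase of spermatids, was at 67.9 RPKM and listed at 0 elsewhere, at least 176-fold above the level of 3 reads, and NEK2, a centrosomal kinase, was at 90.1 against 3.48 in ovary. PRKAR1A, the regulatory subunit of protein kinase A, was at 135 RPKM in testis and 120.3 in ovary. TTBK2, which starts the growth of cilia, and BUB1B, a checkpoint kinase, were at 20.03 and 21.4 RPKM in testis and 5.29 and 10.1 in ovary. NEK5 was the exception, at 0.963 in testis and 6.55 in lung. Among subunits of the proteasome, PSMA8, which replaces a general subunit in spermatocytes, was at 31.7 RPKM in testis and 0.306 in ovary and was listed at 0 in the other 7 organs, while PSMA1, PSMA3, PSMA5, PSMB1 and PSMB7 were each higher in ovary as deposited. After scaling PSMA3 was level, with a difference of 0.05 on the log2 scale, and the other 4 remained below ovary.

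Low levels of germ cell transcripts were listed in other libraries. Of the germ cell genes, 80 had at least 20 RPKM in testis. In ovary 72 of the 80 were above 0, at a median of 0.468% of the testis level, and in lung 51, at 0.0761%. In the other organs 28 to 50 were above 0, at medians of 0 to 0.0833%. These 80 genes summed to 11166 RPKM in testis and to 218 in ovary, 126 in lung and 36.7 to 85.0 in the other 6 organs. The 80 include general genes such as PRKAR1A, which make up much of the latter sums. In the mixture of tissues 62 were above 0. What these low values reflect was not tested.

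Among the genes of Leydig cells and steroid synthesis were some of the highest testis values. Their summed level was 2747 RPKM in testis, 1556 in ovary and 8.0 to 90.8 in the other 7 organs. Of the steroid list 16 of 19 passed, and 5 were at least 4-fold above the highest other organ under both scalings. The share over all genes was 10.1% as deposited and 7.24% after scaling. Against the median of the other organs 12 of the 16 were at least 4-fold higher, and 10 after scaling. Over all genes this was 30.0% as deposited and 2584 of 15252 after scaling. INSL3, the peptide hormone of Leydig cells that guides descent of the testis, was at 1229 RPKM in testis (95% interval 1216 to 1241), 99.1 in ovary, 1.48 in muscle, 0.0727 in heart and 0.0354 in lung, and at 0 in the other 4. CYP17A1, which turns progestins into androgens, was at 548 RPKM in testis, 35.2 in ovary and 0.264 or less elsewhere. HSD17B3, which makes testosterone in the last step, was at 13.7 RPKM (interval 12.7 to 14.8) and listed at 0 in all other organs, ovary included, at least 121-fold above the level of 3 reads.
INSL6, a related peptide of the testis, was at 53.0 RPKM in testis and 0.215 in ovary, and SRD5A1, a steroid reductase, was at 28.0 with 3.08 in kidney. CYB5A, the cytochrome b5 that aids CYP17A1, was nearly level between the gonads, at 721 RPKM in testis and 581 in ovary, as was the receptor of luteinizing hormone LHCGR, at 19.9 and 16.2. CYP11A1, which cleaves the cholesterol side chain to begin the pathway, went the other way, at 94.2 RPKM in testis and 638 in ovary, with at most 0.0237 elsewhere. SCARB1, an uptake receptor of cholesterol, was at 6.86 in testis and 93.9 in ovary, and NR5A2, a nuclear receptor of steroid cells, at 2.44 and 38.0. FDXR, which passes electrons to the mitochondrial steroid enzymes, was at 12.7 in testis and 25.4 in ovary, and HSD17B7, an enzyme of both estrogen and cholesterol synthesis, was at 1.39 and 15.7. IGF1 was at 14.4 RPKM in testis and 22.7 in adipose tissue. PRLR and TSPO were at 0.107 and 0.357 in testis, against 3.68 in kidney and 5.60 in adipose tissue.

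Cholesterol synthesis was high in both gonads. None of the 18 genes was at least 4-fold above the highest other organ, against 10.1% of all genes. Above the median of the other organs by 4-fold were 11, and 8 after scaling. Over all genes this was 30.0% as deposited and 2584 of 15252 after scaling. Highest in testis were 3, among them CYP51A1 at 84.9 RPKM with 61.9 in ovary and NSDHL at 32.3 with 21.3 in ovary. HMGCS1, FDPS and FDFT1, which act at successive stages before the sterol ring is closed, were at 62.7, 63.2 and 64.4 in testis and at 189, 200.1 and 120 in ovary.

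**Figure D5:**
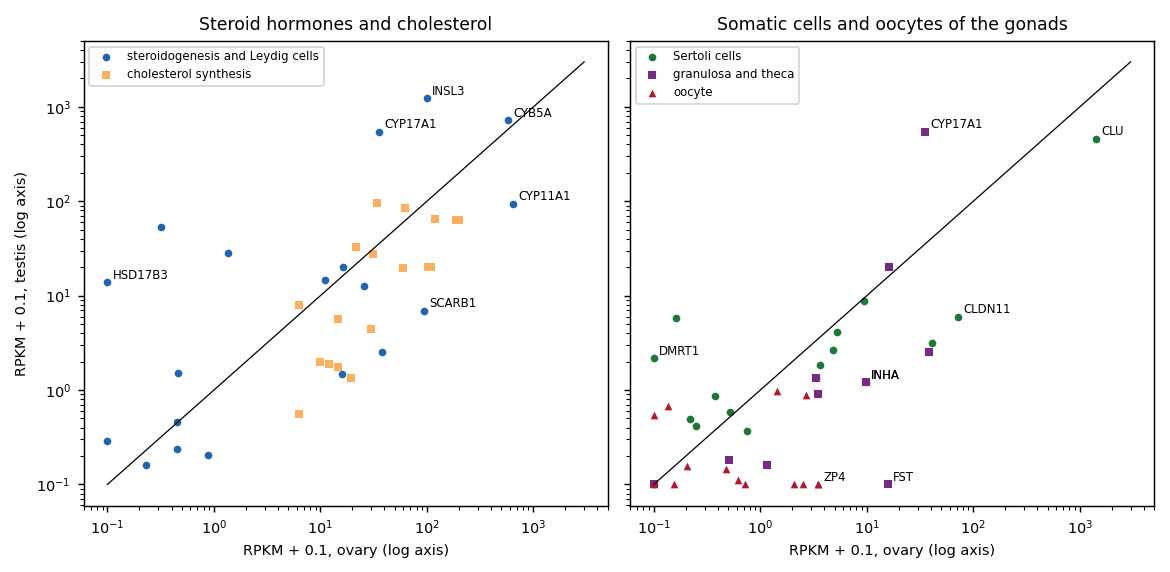
RPKM + 0.1 in testis (vertical, log axis) against ovary (horizontal, log axis) for genes of steroid hormone and cholesterol synthesis (left) and of Sertoli cells, granulosa and theca cells and oocytes (right), with the line of equality. INSL3, CYP17A1 and HSD17B3 lay above the line, CYP11A1 and most cholesterol genes below it, and the oocyte gene ZP4 and FST were at 0 in testis.

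Sertoli cell genes were present at modest levels. Of 17 with an identifier 13 passed, and 2 were at least 4-fold above the highest other organ as deposited, DMRT1 and AARD, and none after scaling. The share over all genes was 10.1% as deposited and 7.24% after scaling, so 2 of 13 is no clear excess by this measure. Against the median of the other organs, 8 of the 13 were at least 4-fold higher, and 7 after scaling. Over all genes this was 30.0% as deposited and 2584 of 15252 after scaling. The median difference of the list from that median was 3.58 and 2.68 after scaling, against 1.04 and 0.06 over all genes. CLU, the secreted chaperone clusterin, was at 456 RPKM in testis and 1411 in ovary. CLDN11, the claudin of the barrier between Sertoli cells, was at 5.85 RPKM in testis and 71.4 in ovary, and the inhibin subunit INHA was at 1.11 and 9.70. GATA4 and WT1, transcription factors of gonadal somatic cells, were at 3.98 and 2.57 RPKM in testis, with 5.13 in ovary and 5.10 in spleen as the highest other values. The receptor of follicle-stimulating hormone FSHR was at 1.25 in testis and 3.26 in ovary. The junction proteins differed, since TJP1 was at 8.74 RPKM in testis and 9.35 in ovary whereas OCLN was at 0.485 in testis and 15.4 in lung, 2.05 below the median of the other organs on the log2 scale. The protease CTSL was at 3.07 in testis and 40.8 in ovary, and TF, the iron carrier transferrin, at 0.398 in testis and 668 in liver. SOX9 was highest in testis, at 0.775 RPKM, but did not pass the filter.
Peritubular myoid and smooth muscle genes were all lower than the median of the other organs, 9 of 9 under both scalings, against 25.7% of all genes as deposited and 46.5% after scaling. None was at least 4-fold lower as deposited and 5 were after scaling, against 3.2% and 7.68% of all genes. CALD1, ACTA2, MYH11, TAGLN and SMTN were at 18.5, 12.4, 9.38, 3.58 and 3.02 RPKM, each within the range of the other organs. DES, MYLK, CNN1 and ACTG2, proteins of the contractile cell, were at 2.50, 2.23, 1.403 and 0.538 RPKM, also within that range. Oocyte genes were near 0, as GDF9 and BTG4 had 0.792 and 0.868 RPKM in testis and BMP15, ZP3, ZP4 and PADI6 were listed at 0 against 1.98 to 3.41 in ovary. These were all 6 of the 14 oocyte genes with an identifier that passed. Of the granulosa and theca list 8 of 10 passed, and only CYP17A1 was at least 4-fold above the highest other organ, against 10.1% of all genes. Against the median of the other organs 6 of the 8 were at least 4-fold higher under both scalings. Over all genes this was 30.0% as deposited and 2584 of 15252 after scaling. Only CYP17A1 and LHCGR were highest in testis. FST, the activin-binding protein follistatin, was listed at 0 in testis and at 15.7 in ovary, and the progesterone receptor PGR was at 0.803 and 3.38.

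Between the gonads, 2265 genes in testis and 1129 in ovary were at least 4-fold above the highest of the 7 other organs. Of these, 306 were in both, 13.5% of the testis genes and 27.1% of the ovary genes. With ovary left out of the filter too, 2249 of 14616 genes were so called in testis. The testis and ovary comparisons share the 7 other organs, and the counts are as deposited, where both gonads had the highest RPKM sums. How far they rest on the scaling was not tested. Among the genes above those 7 organs in each gonad, with the highest level in the lower of them, were CYB5A, SAT1, DNAJA1, DHRS4, INSL3 and CYP11A1, named here after their values were seen. SAT1, a polyamine acetylase, was at 466 RPKM in testis and 790 in ovary. Its testis difference from the median of the 8 other organs was 2.88 on the log2 scale as deposited and 1.46 after scaling. The cochaperone DNAJA1 was at 334 RPKM in testis and 338 in ovary. DHRS4, a carbonyl reductase, had 1031 RPKM in testis and 273 in ovary.

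Extracellular matrix was the list with the most genes far below the other organs. All 17 genes were below the median of the other organs under both scalings, against 25.7% of all genes as deposited and 46.5% after scaling. At least 4-fold lower were 7 as deposited and 12 after scaling, against 3.2% and 7.68% of all genes. FN1, the matrix protein fibronectin, was at 0.512 RPKM in testis (95% interval 0.436 to 0.598), 5.02 in kidney, 6.60 in muscle, 7.41 in heart, 13.9 in spleen, 32.2 in ovary, 34.7 in adipose tissue, 84.9 in lung and 165 in liver. Its testis value lay 3.06 below the lowest other organ on the log2 scale, the largest such gap of all Ensembl genes as deposited.
COL3A1, a fibrillar collagen, was at 1.33 RPKM in testis, 4.403 in liver as the next lowest and 733 in ovary, and COL1A2 was at 1.17 against 1.001 in liver and 309 in adipose tissue. COL4A2, COL5A1, COL6A3 and BGN, which are collagens and a small proteoglycan, were the other 4, at 1.92, 0.173, 0.62 and 0.23 RPKM. The members with the highest testis level were DCN at 12.6, SPARC at 10.8 and FBN1 at 2.69, against 201, 231 and 36.4 in the highest other organ.

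Immune, endothelial and blood genes were also low. Of all genes, 25.7% were below the median of the other organs as deposited and 46.5% after scaling. At least 4-fold lower were 3.2% and 7.68% of all genes. Each list of this paragraph is to be read against these shares. Of 14 genes of macrophages and lymphocytes 11 were below the median (12 after scaling). PTPRC, C1QA and ITGB2 were at least 4-fold lower as deposited, and 4 genes were after scaling. PTPRC, the pan-leukocyte phosphatase, was at 0.929 RPKM in testis, 0.803 in muscle, 61.7 in spleen and 1.96 to 32.1 in the other 6 organs. C1QA, a complement protein of macrophages, was at 0.236 in testis and 54.2 in spleen. Of 8 genes of antigen presentation and interferon 7 were below the median, and 1 was at least 4-fold lower as deposited and 4 after scaling. As deposited this was MX2, an interferon-induced GTPase, at 0.222 RPKM against 15.5 in spleen. All 8 endothelial genes were below the median, and ENG was at least 4-fold lower as deposited, while 7 were after scaling. PECAM1 had the highest testis value, 5.09 RPKM, between 3.41 in liver and 39.2 in lung. HBB, the beta chain of haemoglobin, was at 2.003 RPKM in testis (interval 1.55 to 2.54), below all other organs, which ranged from 4.06 in kidney to 52.7 in spleen. All 4 blood genes that passed were below the median.

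Markers of the other organs were low in testis, with a few above 1 RPKM. The summed level of each list was 25.1 RPKM in testis against 9190 in heart for heart markers, 2.29 against 7517 in liver for liver markers and 3.44 against 14070 in muscle for those of skeletal muscle. It was 5.53 against 1367 in lung, 2.57 against 435 in kidney, 1.48 against 63.4 in spleen and 11.7 against 203 in adipose tissue for the lists of these 4 organs. Of the 55 such genes that passed in 7 lists, none was at least 4-fold above the highest other organ and 1, PNPLA2, was highest in testis, at 2.90 RPKM with 2.37 in adipose tissue. TNNT2, the troponin T of heart, was at 21.2 RPKM in testis, 4075 in heart, 6.07 in muscle and 0.26 or less in the other 6. LIPE, the hormone-sensitive lipase, was at 8.05 in testis and 10.03 in adipose tissue, but at 0.816 or less elsewhere. It is also known to act in steroid-producing cells and germ cells. SFTPC, a surfactant protein of lung, was at 5.43 RPKM in testis and 3.42 in ovary, with 831 in lung and 0.863 or less in the other 6. ALB, the serum albumin made by liver, was at 0.151 RPKM in testis and 5495 in liver and was the only one of the 55 at least 4-fold below the median of the other organs. CUBN, a receptor of kidney tubules, was at 1.65 RPKM in testis and 66.3 in kidney, and RYR2, the calcium channel of heart muscle, at 2.06 in testis and 121 in heart. The liver genes APOC3, APOA2, TTR and AHSG were listed at 0 in testis.

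General genes of the cell lay between these groups. The 11 housekeeping genes had a median difference from the median of the other organs of 0.64 as deposited and -0.34 after scaling, against 1.04 and 0.06 over the 15252 genes that passed as deposited. The ribosomal protein gene RPL4 was at 54.7 RPKM in testis and 426 in ovary. The 22 nuclear genes of oxidative phosphorylation were at 0.29 and -0.76, and none was highest in testis. NDUFB9, a subunit of complex I, was at 97.0 RPKM in testis and 199 in heart. Of the general genes beside germ cell forms, PABPC1, which binds the tails of mRNA, was at 124 RPKM in testis and 96.4 in ovary, and the chaperone HSPA8 at 67.7 and 286. The proteasome and ubiquitin list of 10 genes was at 1.86 and 0.77, with PSMA8 alone at least 4-fold above the highest other organ, against 10.1% of all genes.

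Across the whole table, the 15 genes with a symbol and the largest difference from the highest other organ were mainly genes of meiosis, spermatids and sperm. The list ran from CCDC70 with 9.79 to CYLC2 with 8.72 on the log2(RPKM + 0.1) scale, and after scaling the same genes were 7.81 to 9.58 above. CCDC70, a coiled-coil protein, was at 213 RPKM in testis, 0.14 in liver, 0.133 in ovary, 0.0382 in adipose tissue and 0 in the other 5, and its ratio to liver was 1515 (interval 518 to 7351, from 3 liver reads). ACSBG2, an acyl-CoA synthetase of testis, was at 129 RPKM, and CYLC2, a protein of the sperm head cytoskeleton, at 133, with at most 0.205 and 0.215 elsewhere. SMCO2 and SPATA31G1 were at 145 and 83.9 RPKM, with 0.238 and 0.0907 at most in another organ. The rest of the 15 were ACR, PRM2, PRM1, TSSK2, H1-7, TNP2, GK2, SYCE1, TSSK6 and TNP1, described above.

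The 15 Ensembl genes with the highest RPKM in testis included spermatid genes, the Leydig cell hormone INSL3 and mitochondrial transcripts. PRM1, TNP1 and TNP2 stood beside INSL3, and beside DHRS4 and SULT1C3, which are in none of the gene lists. SULT1C3, a sulfotransferase, was at 928 RPKM in testis, 59.0 in ovary, 4.99 in liver and 0.374 or less in the other 6 organs. The mitochondrially encoded COX1, ND1, COX2, ATP6 and COX3 were at 1482, 1204, 1004, 862 and 796 RPKM. None of these 5 was highest in testis, and COX1 was at 6615 in heart, 5606 in ovary and 4567 in kidney. The remaining 4 had no symbol. ENSSSCG00000006558 was at 1506 RPKM in testis and 7655 in ovary and at 833 to 1815 in the other organs, so it was abundant in every library. ENSSSCG00000026109 was at 883 in testis and 2979 in ovary but at 4.17 or less elsewhere, and ENSSSCG00000011673 was at 858 in testis with 123 in ovary and 89.3 in liver. ENSSSCG00000025604, with a recovered length of only 54 bases and 2266 reads, was at 1088 in testis and 634 in ovary.

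At the other end, the 10 genes furthest below the lowest other organ included THBS1, ATF3 and ACBD4 beside FN1. THBS1, a secreted glycoprotein that binds matrix, was at 0.17 RPKM in testis, 0.845 in muscle, 201 in ovary and 1.06 to 33.0 in the other 6. The stress-induced transcription factor ATF3 was at 0.0131 RPKM in testis, which was 1 read, and at 0.334 to 7.55 elsewhere. ACBD4, which binds acyl-CoA, was at 0.139 in testis and 0.704 to 7.53 elsewhere. Past 4-fold were FN1 and the unnamed ENSSSCG00000030012 and ENSSSCG00000026167, with 161, 2 and 0 reads in testis. The other unnamed ones were ENSSSCG00000026804, ENSSSCG00000012869, ENSSSCG00000007978 and ENSSSCG00000000148, whose differences from the lowest other organ ranged from -1.99 to -1.80.

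The place of the called genes was described with the order of neighbours. With the order of genes taken from RefSeq for Sscrofa11.1, 8929 named genes that passed the filter could be placed, 737 of them (8.25%) at least 4-fold above the highest other organ. Of the 737, 139 (18.9%) stood next to another called gene in this order, and of all 8929 genes 1409 (15.8%) did, so the share was near that of all genes. There were 12 runs of 3 or more called genes. PRM1, PRM2 and TNP2 formed 1 run, as they do in other mammals, and LYPD4, DMRTC2 and TEX101 another. The longest run held CEP41, CPA1, CPA4 and SSMEM1. Called genes with a length recovered in at least 4 libraries had a median length of 1500 bases, against 1849 over all that passed. They were above 0 in the mixture of tissues for 84.0%, against 98.2% of all that passed, and their median there was 0.236 RPKM.

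The lncRNAs showed a larger share of testis features than the Ensembl genes. Their catalogue was assembled from libraries of this series, testis among them, so the counts below are no independent survey. Of 10813 lncRNAs listed, 6472 were above 0 in testis and 1650 to 3984 in the other organs, and 2072 reached 1 RPKM in testis against 160 to 785 elsewhere. The filter was passed by 3346, and 1393 of them, or 41.6%, were at least 4-fold above the highest other organ in testis. After scaling the count was 788 of the 2947 that then passed. The share depends on the filter. It was passed through testis alone by 1622 of the 3346, which therefore had to lie above the other organs. They held 1350 of the 1393, and only 43 reached 1 RPKM in another organ as well. With a filter of 0.1 RPKM, 2158 of 7932 lncRNAs and 1686 of 18576 Ensembl genes were at least 4-fold above the highest other organ. Against the median of the other organs 1994 (59.6%) were at least 4-fold higher and 85 (2.54%) were lower, and after scaling 1232 and 157. The same count of lncRNAs at least 4-fold above all others was 147 in ovary, 92 in kidney and 18 to 49 in the other organs, and after scaling 104 in kidney, 90 each in liver and lung, and 44 in ovary.

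The called lncRNAs were mostly of low level. Their median was 2.24 RPKM in testis, with quartiles of 1.44 and 4.42, against a median of 13.5 RPKM for the called Ensembl genes, and 1085 of 1393 had at least 20 testis reads. They took 1.46% of the counted reads of testis, whereas all lncRNAs together took 2.69% there and 1.36% to 3.68% in the other organs. Of the 1393, 454 had a length recovered in at least 4 libraries. For the rest the recovered reads are lower limits, so these read counts and shares may be too low. In all 8 other organs 594 of the 1393 were listed at 0. Among those above 0 in another organ, the next organ was ovary for 207, lung for 163, adipose tissue for 156 and kidney for 147. The median difference from the highest other organ over the 3346 was 0.81, or 0.48 with those at 0 elsewhere set at the bound. After scaling it was 0.01 over the same 3346, and -1.86 over the 2947 that then passed the filter. Only 44.1% of the 1393 were above 0 in the mixture of tissues, against 68.9% of all that passed.

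Among the 10 lncRNAs furthest above the other organs, 8 were listed at 0 in all of them. TCONS_00461152 was at 66.5 RPKM in testis (95% interval 59.9 to 73.6, from 372 reads) and at least 69.7-fold above the level of 3 reads. TCONS_00875319 was at 51.3 RPKM, at least 201-fold above that level, and TCONS_00503774, TCONS_00230479, TCONS_00370369, TCONS_00143887, TCONS_00206492 and TCONS_00374375 were at 48.3, 37.1, 36.8, 29.7, 27.7 and 27.5 RPKM. For features above 0 in fewer than 4 libraries the recovered reads are lower limits, so these bounds are cautious. TCONS_00439007 and TCONS_00707411 were the 2 with a value elsewhere, at 72.0 and 46.6 RPKM in testis and with 1 read each in muscle and kidney.

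The lncRNAs of the highest testis level were only in part of testis. TCONS_00512109 led with 1852 RPKM in testis but was at 6380 in heart, 6038 in muscle and 5375 in kidney, and lowest in liver at 278. TCONS_00099633 followed with 322 RPKM (interval 312 to 333) in testis, 4.02 in spleen, 2.52 in adipose tissue, 1.73 in ovary, 0.331 in liver and 0.208 in muscle, and was at 0 in heart, lung and kidney. TCONS_00191107 was at 188 RPKM in testis, 22.1 in lung and 13.1 in ovary, and TCONS_00176684 at 183 with 15.3 in ovary.
TCONS_00729940, TCONS_00334042, TCONS_00127960, TCONS_00295212 and TCONS_00811377 were at 107, 87.3, 83.6, 76.3 and 73.9 RPKM, each at least 4-fold above the next organ. TCONS_00742897 was at 103 RPKM in testis and 47.1 in lung and was level with lung after scaling, with a difference of -0.09 on the log2 scale. Below the lowest other organ by 4-fold were TCONS_00823102, listed at 0 in testis and at 0.632 to 544 elsewhere with the highest value in adipose tissue, and TCONS_00801397, at 0.0561 in testis, which was 1 read, and 0.562 to 15.3 elsewhere. These 2 were 0.0598% of the lncRNAs that passed. TCONS_00319870, TCONS_00658520 and TCONS_00619299 were next, with differences of -1.74, -1.36 and -1.21.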

How the data were processed

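Total RNA of 9 organs at day 240 was compared. The authors mapped the reads with TopHat (version 1.3.2 in the submitters' processing notes), assembled transcripts with Cufflinks (version not given in the sources used here), counted reads with htseq-count and deposited 1 RPKM value per feature and library. The genome build of these libraries is not given in the sources used here, and no coordinates or sequences are given.

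Total reads and feature lengths were recovered from the RPKM values of 13 libraries as the numbers that give whole reads. All 29462 features above 0 came out whole within 1e-05. For a feature above 0 in 1 library a length that meets this limit can always be found, so such features are no check. The features included 22695 above 0 in at least 4 libraries, and the largest distance from a whole number was 1.2e-09. In simulated libraries with the same features, the totals were exact for 9 of 9. Reads were exact for 23253 of 23282 features present in 4 or more of them and 2301 of 2343 in 1 to 3. The simulation took the recovered lengths as true and its rates from the other organs, so it held no features confined to testis. These shares therefore do not carry over to such features, whose recovered reads are lower limits. The 4-fold limit called 50 of 50 features raised 8-fold, 0 of 50 raised 2-fold and 1 of 11027 unchanged ones. The simulated organs shared 1 rate per feature and differed otherwise by counting error only. These calls therefore give no error rate for real organs, animals or libraries.

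Differences were taken on log2(RPKM + 0.1) between testis and the highest, the median and the lowest of the other 8 organs, for features that reached 1 RPKM in any of these 9, and called at 4-fold (2 on the log2 scale). The median is that of the log2 values. Single values have exact Poisson 95% intervals, and ratios exact conditional binomial ones. Both cover counting error only. For genes listed at 0 in the other organs, folds are lower bounds against the level of 3 reads in the organ where that level was highest. Symbols came from an Ensembl name table of a later release, which matched 11654 of 21607 identifiers, and the order of genes from RefSeq for Sscrofa11.1, used only to say which genes neighbour each other. The 32 gene lists hold 659 symbols, of which 448 genes had an identifier. The members and lists were chosen with earlier results of these data known.

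Genes were named by rule: in each list up to 5 of the highest testis RPKM, those at least 4-fold below the median of the other organs and, in lists of testis cells, those not above the highest other organ. A few genes that this rule would name are not reported here. Across the table, these were the 15 named Ensembl genes furthest above the highest other organ, the 15 of most testis RPKM and the 10 furthest below the lowest, and 10, 10 and 5 lncRNAs in the same way. Alternatives were scaling to the same sum or the same median ratio, pseudocounts of 0.01 and 1, a filter of 0.1 RPKM, a 2-fold limit, leaving out ovary and, added after seeing the data, drawing 3629806 counted reads from each library. Computations used Python 3.11.15, NumPy 2.4.6, pandas 2.3.3 and SciPy 1.17.1, and figures matplotlib 3.10.9.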

Additional observations from a re-analysis of the deposited data

How the results depend on the processing

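Of 64 values (8 counts under 8 alternatives), 32 stayed within 1.5 times of the count as reported and 32 did not. Ensembl genes at least 4-fold above the highest other organ moved past this limit only with a 2-fold limit, which gave 2576, and ranged from 1076 to 2249 otherwise. Scaling to the same sum and to the same median ratio gave, for Ensembl genes, 2594 and 2529 above the median, 1177 and 1047 below the median and 24 and 40 below the lowest other organ. For lncRNAs they gave 788 and 731 above the highest, 1232 and 1082 above the median and 157 and 135 below it. The 2-fold limit gave 7762 Ensembl genes above the median, 1615 below it and 64 below the lowest, and 244 lncRNAs below the median and 8 below the lowest. A pseudocount of 0.01 gave 958 Ensembl genes below the median and 46 below the lowest, and 220 and 10 lncRNAs. A pseudocount of 1 gave 2664 Ensembl genes above the median, 60 below it and 0 below the lowest, and 428 lncRNAs above the highest, 572 above the median, 3 below it and 0 below the lowest. A filter of 0.1 RPKM gave 2158 lncRNAs above the highest and 3532 above the median, as 7932 then passed in place of 3346. Drawing the same number of reads, chosen after seeing the data, gave 9 Ensembl genes below the lowest other organ, and leaving out ovary moved none of the 8 counts past the limit. No paired analysis was possible because each organ had 1 library and the result comes from no test. Animals, libraries and organs cannot be told apart, and the SMART and dUTP protocols may differ between libraries. Values of a few reads rest on counting error.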
